A study of Mus musculus with 6 samples.

Results

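The prostaglandin and leukotriene pathway is described here through 10 genes in tumor-associated macrophages (TAMs), the macrophages that live within a tumor. The 10 genes were chosen by name, with no threshold on a value, as rows of the deposited table of 22377 genes. They are the cyclooxygenases Ptgs1 and Ptgs2, the prostanoid synthases Ptges, Hpgds and Tbxas1, the prostaglandin-degrading enzyme Hpgd, the leukotriene enzymes Alox5, Alox5ap and Ltc4s, and the leukotriene B4 receptor Ltb4r1. All 10 were in the table and all 10 passed edgeR's filter on low counts, as did 13884 genes in all.

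The study sorted CD45+ CD11b+ F4/80+ cells from subcutaneous tumors of LLC (murine Lewis lung carcinoma cells) that grew in young male and female Npm1+/+ and Npm1+/- mice. NPM1 is nucleophosmin, an abundant nucleolar protein, and Npm1+/- animals carry 1 intact copy of its gene in every cell, not only in macrophages. The GEO labels name the groups wt and knockdown, give 3 libraries to each and state no genotype, so the groups are called labelled wt and labelled knockdown here. The library titles use ko for the second group, which is neither the word knockdown nor Npm1+/-. The labels also describe whole tumor tissue extracted with TRIzol and a small RNA library, whereas the methods of the study describe sorted macrophages, a column kit and full-length cDNA. Both groups carried LLC tumors, and the labels name no agent given to either.

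Both branches of the pathway start from arachidonic acid, which phospholipases A2 release from membranes. Cyclooxygenases turn it into prostaglandin H2, from which terminal synthases make prostaglandin E2, prostaglandin D2, prostacyclin or thromboxane A2. In the other branch 5-lipoxygenase, handed its substrate by the membrane protein FLAP, makes leukotriene A4, which becomes leukotriene B4, an attractant of neutrophils, or the cysteinyl leukotrienes. Macrophages are known to express both branches, with cyclooxygenase-2 as the inducible step of the first, and prostaglandin E2 is a well-known product of tumor tissue.

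Total counts were 36550775 to 38147320 per library, so that 3 counts, the number that a count of 0 allows, correspond to 0.0716 to 0.0846 CPM (counts brought to 1 library size by TMM), covering counting error only. Npm1, the targeted gene, was not lower in the group labelled knockdown. Values per library are given in the order of the replicate numbers throughout. Labelled wt libraries held 142, 380 and 381 CPM of Npm1 and those labelled knockdown held 441, 499 and 343 CPM, with a log2 fold change of 0.51 ± 0.36 (SE, n = 3 per group; edgeR adjusted p = 0.436). It was 0.16 without labelled wt replicate 1. Labelled wt replicate 1 stood apart from the other libraries: it lay at -108 on the first principal component (68.0% of the variance), and the other 5 lay between -4.54 and 52.0. All macrophage markers on the list were detected, but their summed level was 7022 to 7765 CPM in labelled wt and 4123 to 6540 CPM in labelled knockdown, without overlap. The neutrophil list, with S100a9 as its most abundant gene, summed to 1890 to 2108 CPM in labelled wt and 838 to 1610 CPM in labelled knockdown. The fibroblast list, 85.0% of it Col3a1, summed to 24.3 CPM in labelled wt replicate 1 and to 287 to 717 CPM in the other 5 libraries. The epithelial or carcinoma list, 82.8% of it Krt8, was likewise lowest in labelled wt replicate 1, at 36.1 CPM against 80.4 to 192 CPM elsewhere. The T and NK cell list summed to 15.8 to 58.0 CPM in labelled wt and 45.6 to 125 CPM in labelled knockdown, highest in labelled knockdown replicate 2. Fewer cells of a type and less RNA per cell cannot be told apart in such data. The labels call the libraries separate biosamples without saying that each is 1 mouse, and the study describes fewer mice per group for its RNA sequencing than there are libraries. In what follows n counts libraries, and p-values measure the spread between them.

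The bases just before the start of 4 genes are shown because they open the steps at which the branches are read below: both cyclooxygenases, 5-lipoxygenase and the leukotriene B4 receptor. They are the 250 bases upstream of the RefSeq start in GRCm38.p6, read 5′ to 3′ on the strand of the gene, at chr2:36230176-36230425 (+ strand) for Ptgs1, chr1:150099781-150100030 (+ strand) for Ptgs2, chr6:116461179-116461428 (- strand) for Alox5 and chr14:55765712-55765961 (+ strand) for Ltb4r1. Capitals mark GAGGAA (a core bound by PU.1 and other ETS factors), GGGCGG (the GC box) and TTGCNNAA (a C/EBP core) on either strand.
Ptgs1: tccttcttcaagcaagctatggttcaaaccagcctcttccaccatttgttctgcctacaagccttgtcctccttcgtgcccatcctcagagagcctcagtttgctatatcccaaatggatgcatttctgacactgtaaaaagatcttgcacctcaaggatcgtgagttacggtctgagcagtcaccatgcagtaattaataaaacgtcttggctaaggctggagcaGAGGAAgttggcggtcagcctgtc
Ptgs2: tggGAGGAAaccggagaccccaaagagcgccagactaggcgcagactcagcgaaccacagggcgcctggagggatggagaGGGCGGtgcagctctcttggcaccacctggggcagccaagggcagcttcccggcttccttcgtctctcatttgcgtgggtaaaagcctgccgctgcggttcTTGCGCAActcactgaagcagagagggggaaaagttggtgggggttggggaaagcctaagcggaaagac
Alox5: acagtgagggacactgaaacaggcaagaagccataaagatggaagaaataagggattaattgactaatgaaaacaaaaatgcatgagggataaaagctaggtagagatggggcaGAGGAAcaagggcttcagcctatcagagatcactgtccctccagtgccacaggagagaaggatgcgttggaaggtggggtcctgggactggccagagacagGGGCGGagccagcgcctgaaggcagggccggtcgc
Ltb4r1: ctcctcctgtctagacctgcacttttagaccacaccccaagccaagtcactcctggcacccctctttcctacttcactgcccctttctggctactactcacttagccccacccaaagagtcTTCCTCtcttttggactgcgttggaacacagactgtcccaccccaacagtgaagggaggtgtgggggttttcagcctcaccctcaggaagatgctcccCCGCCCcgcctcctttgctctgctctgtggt
Of the 10 genes, 9 had an entry among the RefSeq promoter windows, which hold 250 bases before and 50 bases after the start. Alox5ap had none. GAGGAA was present on either strand in 9 of 9 windows, against 28.3% of 32851 windows of the same length. In Ltc4s it lay only after the start, at base 17. GGGCGG was present in the windows of Ptgs2, Ptges, Hpgd, Alox5 and Ltb4r1 (35.7% of all windows). TTGCNNAA was in those of Ptgs2 and Hpgds (10.8%) and TATAAA in those of Tbxas1 and Hpgd (13.6%), in Hpgd at base 5 after the start. TGANTCA, the AP-1 motif, was in that of Tbxas1 (7.81%). TTCNNNGAA, the STAT motif, was found in 0 of 9 windows and in 8.3% of all windows. The window of Ptgs2 was the only one of the 9 with ACGTCA, the core of the cAMP response element (7.51% of all windows), or CACGTG, the E box (7.15%). These share 2 bases and lie just after the annotated start, within the run of bases 7 to 28 of the gene at chr1:150100037-150100058 (+ strand), in which capitals mark both.
Ptgs2 site: accactACGTCACGTGgagtcc
The letters were chosen after the sequences had been seen, and a match describes the window and not binding.

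Levels of different genes are compared per length, as FPKM (counts per kilobase of gene, scaled to the library total). Ptgs2 and Alox5ap were by far the most abundant of the 10, with means over the 6 libraries of 688 and 602 FPKM. Ptgs2 ranked 67th to 236th among all genes by FPKM and took 0.148% to 0.434% of all counts. Their ranges, 337 to 991 and 405 to 822 FPKM, overlapped. Within libraries Ptgs2 lay above Alox5ap in all but labelled wt replicate 1, where it had 337 against 822 FPKM, so their order was not the same throughout. Ltb4r1 followed at 82.3 FPKM, ahead of Ptges at 21.4, Ptgs1 at 6.34, Alox5 at 5.36, Hpgd at 3.71 and Ltc4s at 2.79 FPKM, each of the last 4 overlapping its neighbour. Tbxas1 and Hpgds were lowest, at 0.768 and 0.655 FPKM.

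The position of Tbxas1 in that order depends on the length used. The length behind its FPKM was 37767 bases, 4.15 times the 9094 bases of its exons in GENCODE, while the ratio for the other 9 genes was 0.666 to 1.26. With the GENCODE length Tbxas1 had a mean of 3.19 FPKM and stood above Ltc4s at 1.93 FPKM. The same counts enter both values, so comparisons of a gene between groups are not touched by the length.

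**Figure D1:**
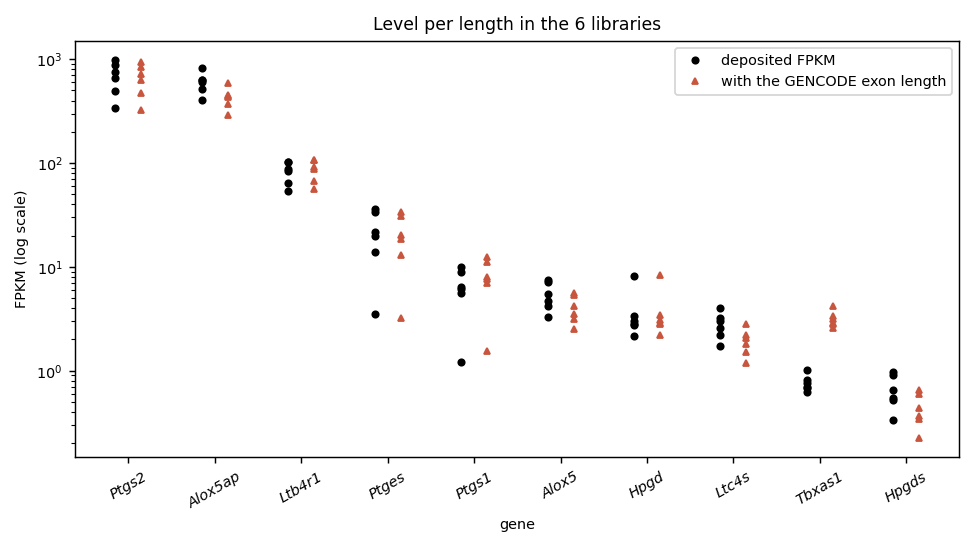
FPKM of the 10 genes in each of the 6 libraries on a log axis, as deposited (circles) and with the GENCODE exon length in place of the deposited length (triangles). Ptgs2 and Alox5ap lie near the top with overlapping ranges, and Tbxas1 moves from 0.768 to 3.19 FPKM on average when the length is exchanged.

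None of the 10 genes passed an adjusted p of 0.05 between the groups in the quasi-likelihood test of edgeR, adjusted by Benjamini-Hochberg over the 13884 genes. No gene of the whole table did (0% of those tested), and DESeq2 on the same 6 libraries called 36 genes (0.263% of 13699), none of them among the 10. At an unadjusted p under 0.05, edgeR had 0 of the 10 higher (6.9% of all genes) and 4 of the 10 lower in labelled knockdown (8.31% of all genes): Ltb4r1, Hpgd, Alox5ap and Alox5. Groups were fully separate for 3 of the 10, Hpgd, Alox5ap and Ltb4r1, each lower in labelled knockdown (12.6% of all genes, and 13.3% for higher, where none of the 10 lay). The median log2 fold change of the 10 was -0.49, against 0.02 for all genes tested. The count of 4 rested on the libraries used, as did the share of all genes at an unadjusted p under 0.05 in either direction. Without labelled wt replicate 1 it was 1 of the 10 (12.2% of all genes), without labelled wt replicate 2 it was 5 (18.8%), and without labelled wt replicate 3 it was 3 (16.8%). Without labelled knockdown replicate 1 it was 0 (5.49%), without labelled knockdown replicate 2 it was 1 (4.75%), and without labelled knockdown replicate 3 it was 4 (17.3%).

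**Figure D2:**
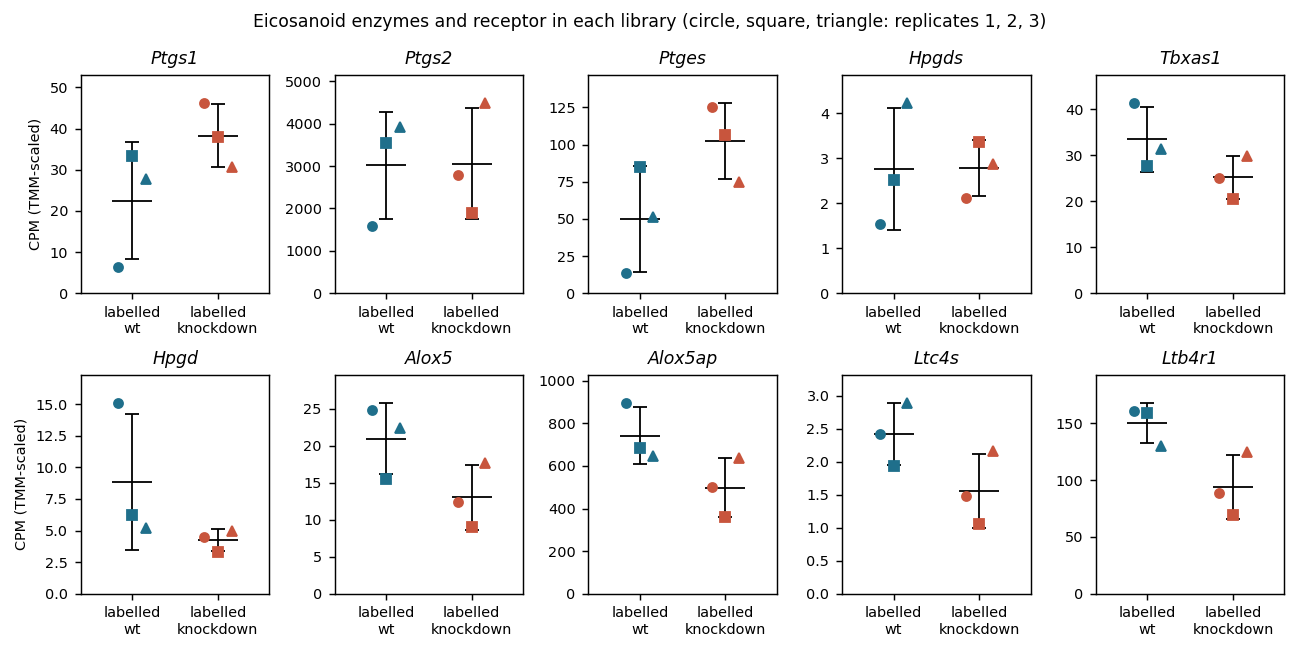
TMM-scaled CPM of the 10 genes in each library, with points for the 3 replicates, a bar for the mean and whiskers of 1 SD; each axis starts at 0. Labelled wt replicate 1 is the lowest of all 6 libraries for Ptgs1, Ptgs2, Ptges and Hpgds and the highest for Tbxas1, Hpgd, Alox5, Alox5ap and Ltb4r1. That library stood apart over all genes, and the share of all genes at an extreme in it was not counted.

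Ptgs2 encodes cyclooxygenase-2, the inducible enzyme that makes prostaglandin H2, at chr1:150100031-150108227. The labelled wt libraries had 1585, 3534 and 3928 CPM, and the labelled knockdown libraries had 2782, 1904 and 4483 CPM. Low and high libraries occurred in both groups, and the means, 3016 ± 1254 and 3056 ± 1311 (SD, n = 3), lay well within the spread. The log2 fold change was 0.02 ± 0.41 (SE), with an edgeR adjusted p of 0.981. Its sign depended on the libraries: it was -0.29 without labelled wt replicate 1 and -0.37 without labelled knockdown replicate 3.

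Ptgs1 encodes cyclooxygenase-1, the constitutive counterpart, at chr2:36230426-36252272. Its CPM was 6.38, 33.4 and 27.8 in labelled wt and 46.2, 38.0 and 30.8 in labelled knockdown. The groups overlapped between 30.8 and 33.4 CPM, and labelled wt replicate 1 was far below every other library. The log2 fold change of 0.77 ± 0.52 (SE; edgeR adjusted p = 0.419) was 0.32 without that library, where the fibroblast and epithelial or carcinoma lists were also at their lowest, and 1.16 without labelled wt replicate 2. Whether other cell types have a part in the values of Ptgs1 was not tested.

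Ptges encodes the inducible microsomal prostaglandin E synthase, which acts after the cyclooxygenases, at chr2:30889471-30929863. Its CPM was 13.7, 84.8 and 51.5 in labelled wt and 125, 107 and 75.0 in labelled knockdown. The mean was 2.05-fold higher in labelled knockdown, 102 ± 25.5 against 50.0 ± 35.6 (SD, n = 3), but 1 labelled wt library lay above the lowest labelled knockdown library. The log2 fold change was 1.03 ± 0.56 (SE; edgeR adjusted p = 0.356). It was 0.58 without labelled wt replicate 1 and 1.65 without labelled wt replicate 2. By level of Ptges the 6 libraries stood in the same order as by the summed fibroblast list and by the summed epithelial or carcinoma list. All 8 fibroblast markers had positive log2 fold changes, with a median of 1.26, whereas of the 4 epithelial or carcinoma markers tested 2 were positive and 2 negative. The part of other cells in the values of Ptges was not tested.

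Hpgds and Tbxas1 encode the hematopoietic prostaglandin D synthase and thromboxane A synthase. Hpgds, at chr6:65117293-65144908, had 1.55, 2.51 and 4.22 CPM in labelled wt and 2.11, 3.37 and 2.87 CPM in labelled knockdown, with a log2 fold change of 0.01 ± 0.41 (SE; edgeR adjusted p = 0.989). Its groups overlapped throughout, and its sign turned under several settings. Tbxas1, at chr6:38875404-39084585, had 41.3, 27.6 and 31.4 CPM in labelled wt and 25.0, 20.6 and 29.9 CPM in labelled knockdown. Its log2 fold change was -0.41 ± 0.21 (SE; edgeR adjusted p = 0.343), and -0.23 without labelled wt replicate 1, and the groups overlapped. Tbxas1 overlaps Hipk2 on the opposite strand, and whether the counting used strand is not given in the sources used here.

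Hpgd encodes 15-hydroxyprostaglandin dehydrogenase, which inactivates prostaglandin E2, at chr8:56294585-56321043. Its CPM was 15.1, 6.26 and 5.24 in labelled wt and 4.50, 3.27 and 4.95 in labelled knockdown. Every labelled knockdown library lay below every labelled wt library, although 5.24 and 4.95 CPM are close. The log2 fold change was -1.06 ± 0.43 (SE; edgeR adjusted p = 0.328). Its size rested on labelled wt replicate 1, without which it was -0.44.

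Alox5ap encodes FLAP, the protein that presents arachidonic acid to 5-lipoxygenase, at chr5:149264767-149288153. Its CPM was 894, 686 and 645 in labelled wt and 501, 358 and 635 in labelled knockdown. The groups did not overlap, but labelled knockdown replicate 3 lay just under the lowest labelled wt library. The means were 742 ± 133 and 498 ± 139 (SD, n = 3), a log2 fold change of -0.57 ± 0.23 (SE; edgeR adjusted p = 0.328). Leaving out 1 library at a time gave -0.79 to -0.39.

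Alox5 encodes 5-lipoxygenase itself, at chr6:116410077-116461178. Its CPM was 24.7, 15.5 and 22.4 in labelled wt and 12.4, 8.95 and 17.6 in labelled knockdown. Labelled knockdown replicate 3 lay above labelled wt replicate 2, so the groups overlapped. The log2 fold change was -0.69 ± 0.29 (SE; edgeR adjusted p = 0.328), and it ranged from -0.97 to -0.48 with 1 library left out. Ltc4s, whose product leukotriene C4 synthase starts the cysteinyl leukotrienes (chr11:50236461-50238616), was much scarcer. It had 2.42, 1.94 and 2.89 CPM in labelled wt and 1.48, 1.05 and 2.16 CPM in labelled knockdown, with a log2 fold change of -0.63 ± 0.37 (SE; edgeR adjusted p = 0.375), or -0.42 without labelled knockdown replicate 2.

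Ltb4r1 encodes BLT1, the high-affinity receptor of leukotriene B4, at chr14:55765962-55768494. It had the smallest p of the 10 and ranked 577 among all genes tested. Its CPM was 161, 159 and 130 in labelled wt and 88.4, 69.1 and 125 in labelled knockdown. The groups did not overlap, with labelled knockdown replicate 3 again nearest to labelled wt. The log2 fold change was -0.67 ± 0.22 (SE; edgeR adjusted p = 0.328), and it ranged from -0.94 to -0.50 with 1 library left out.

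**Figure D3:**
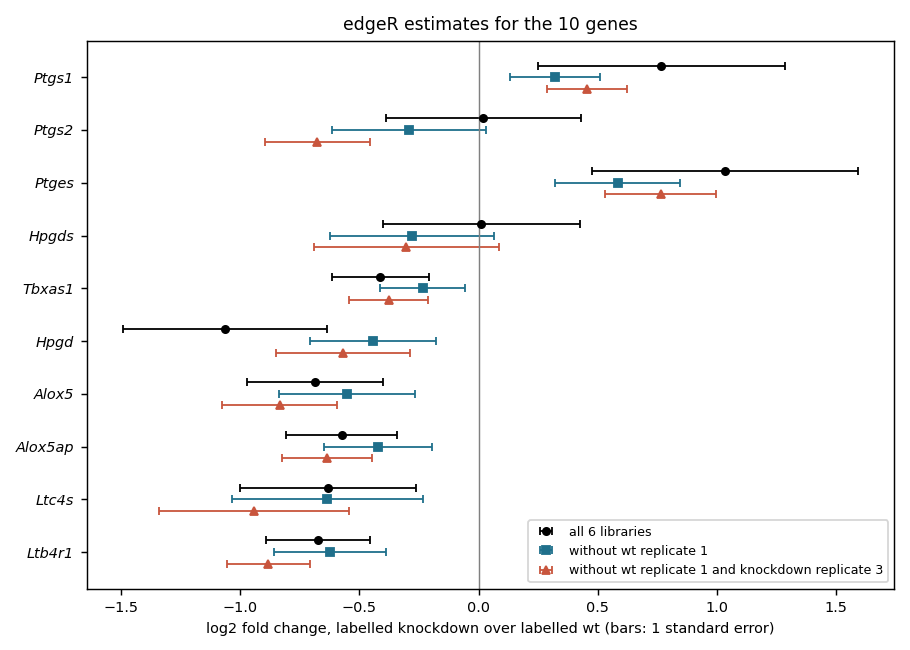
edgeR log2 fold changes of the 10 genes, labelled knockdown over labelled wt, with bars of 1 SE, from all 6 libraries, without labelled wt replicate 1, and without that library and labelled knockdown replicate 3. The 4 leukotriene genes keep negative values in all 3 fits, while Ptgs2 moves from 0.02 to -0.68.

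The leukotriene genes and several marker lists were lowest in the same library. Labelled knockdown replicate 2, at 52.0 the highest library on the first principal component, was the lowest of the 6 libraries for Tbxas1, Hpgd, Alox5, Alox5ap, Ltc4s and Ltb4r1. The share of all genes that were lowest in this library was not counted. The summed macrophage, monocyte, neutrophil, and mast cell and basophil lists were also lowest there. In that library the T and NK cell list was at its highest and the fibroblast and epithelial or carcinoma lists were second highest. Of the 10 macrophage markers, 10 had negative log2 fold changes, with a median of -0.52, 0 passed the adjusted p, 6 were lower at an unadjusted p under 0.05 (8.31% of all genes) and 7 were lower without overlap (12.6% of all genes). The monocyte list, with Vcan as its most abundant gene, summed to 4768 to 5598 CPM in labelled wt and 2417 to 4391 CPM in labelled knockdown. Of the 8 neutrophil markers tested, 8 had negative log2 fold changes, with a median of -0.65, and 0 passed the adjusted p. At an unadjusted p under 0.05, 4 were lower (8.31% of all genes), and 5 were lower without overlap (12.6% of all genes). The list for mast cells and basophils, also known leukotriene makers, was 96.6% Hdc. Of its other members, Cpa3, Mcpt4, Mcpt8, Tpsb2, Fcer1a and Ms4a2 were at 0 to 15 counts in every library and Cma1 at 0 to 28. Kit, the remaining member, had 7.98 to 10.2 CPM in labelled wt and 9.21 to 11.8 CPM in labelled knockdown. Its log2 fold change was 0.15 ± 0.20 (SE), and it was highest in labelled knockdown replicate 2, where the list was lowest. The lower sum of the list in labelled knockdown, 185 to 335 against 340 to 374 CPM, was that of Hdc.

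Set against the macrophage list, the leukotriene genes lay closer together in the 2 groups. The list was 39.0% Itgam and was itself lower in labelled knockdown, so dividing by it raises every gene there relative to labelled wt. Alox5ap was at 101 ± 12.2 CPM per 1000 CPM of macrophage markers in labelled wt and at 94.4 ± 6.52 in labelled knockdown (SD, n = 3). The same measure was 20.6 ± 2.01 and 17.8 ± 1.20 for Ltb4r1, and 2.86 ± 0.58 and 2.44 ± 0.26 for Alox5. For Ptges it was 7.02 ± 5.11 and 20.7 ± 8.03, and for Ptgs1 it was 3.17 ± 2.06 and 7.68 ± 2.58. With libraries scaled to this list, edgeR called 0 genes at an adjusted p of 0.05, with 4781 at an unadjusted p under 0.05. The median of all genes was then 0.55 and that of the 10 was -0.01 on the log2 scale, since this scaling shifts all genes of a library alike. This scaling was chosen after the values had been seen, and the part of macrophage share in the leukotriene values was not tested beyond it. The part of neutrophil or monocyte share in them was not tested.

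**Figure D4:**
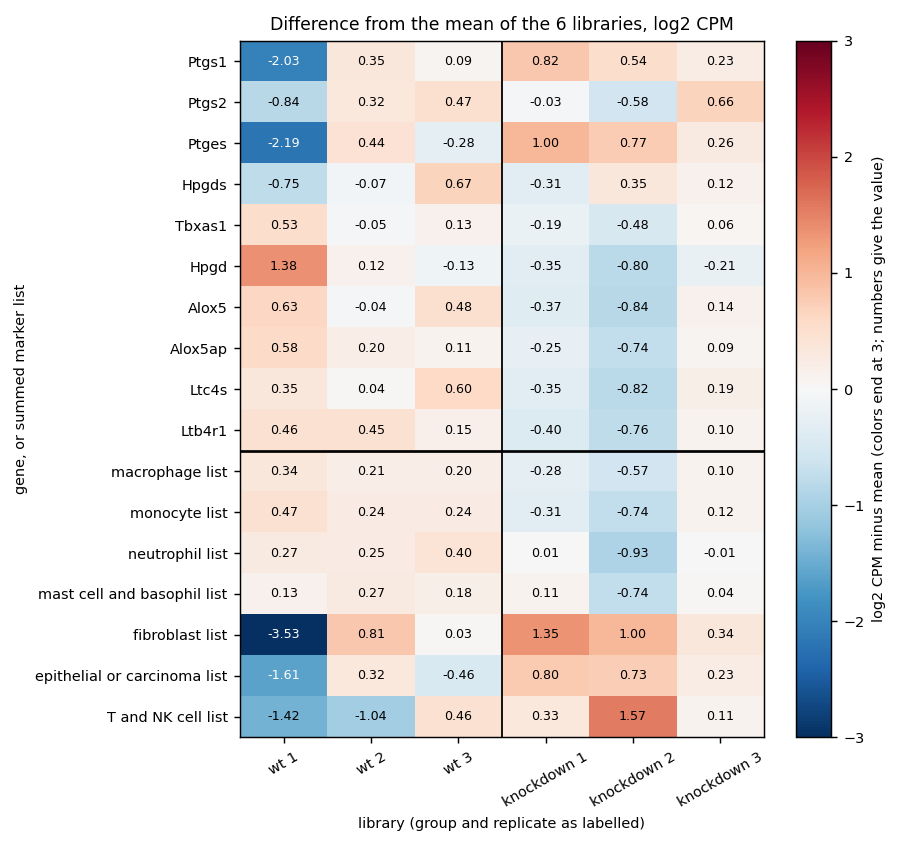
Difference of each gene, and of each summed marker list, from its own mean over the 6 libraries on the log2 CPM scale, with the value printed in each cell. Labelled knockdown replicate 2 is low for the leukotriene genes and the macrophage, monocyte, neutrophil, and mast cell and basophil lists. Labelled wt replicate 1 is low for Ptgs1, Ptges and the fibroblast, epithelial or carcinoma and T and NK cell lists.

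In 4 libraries, without labelled wt replicate 1 and labelled knockdown replicate 3, the tools differed. DESeq2 called 5 of the 10 genes, 1 higher (4.42% of all genes tested there) and 4 lower in labelled knockdown (6.21%). Ltb4r1 was lower, with a log2 fold change of -0.92 (DESeq2 adjusted p = 4.38e-04), as were Ptgs2 at -0.71 (adjusted p = 0.00779), Alox5ap at -0.67 (adjusted p = 0.00983) and Alox5 at -0.87 (adjusted p = 0.0192), and Ptges was higher at 0.72 (adjusted p = 0.0261). On the same 4 libraries edgeR called 0 of the 10 at an adjusted p of 0.05 and had 7 at an unadjusted p under 0.05 (23.2% of all genes). These libraries were picked with earlier results known, and they leave 2 per group.

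The genes whose profile over the 6 libraries was nearest to that of Ptgs2 were Apold1, Tnip3 and Gm52308, and those nearest to Alox5 were Mtus1, Fcrl2 and Ceacam1. The root mean square difference of centred log2 CPM was 0.109, 0.209 and 0.218 for the first set and 0.067, 0.080 and 0.080 for the second. For scale, Ptgs2 itself had an SD of 0.60 over the 6 libraries on this measure. Gm52308 had only 7 to 17 counts per library, or 0.197 to 0.465 CPM, so its place rests on few counts. Apold1, an early response gene of the endothelium, had 3.40, 8.03 and 7.43 CPM in labelled wt and 6.61, 3.87 and 9.16 CPM in labelled knockdown, so its lowest and highest libraries were those of Ptgs2.

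Beyond the 10 genes, 48 further genes of eicosanoid synthesis, breakdown, transport and reception were listed, 46 were in the table used here and 30 passed the filter. Of these 30, 0 passed edgeR's adjusted p of 0.05. At an unadjusted p under 0.05, 1 was higher (Cysltr2; 6.9% of all genes) and 4 were lower (Ptger2, Abcc4, Cyp4f18 and Ptgir; 8.31%), and DESeq2 on the 6 libraries called 0. The median log2 fold change of the 30 was -0.10. On the 4 libraries DESeq2 called 0 of them higher (4.42% of all genes) and 5 lower (6.21%), which were Ptger2, Cyp4f18, Ptger1, Cysltr1 and, named after its values were seen, Dpep2.

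The 4 phospholipases A2 that were tested, which release arachidonic acid, had positive values in the 6 libraries, and none passed the test. Pla2g4a, the most abundant of them and the cytosolic form, had 35.0, 67.0 and 62.7 CPM in labelled wt and 62.8, 58.3 and 77.0 CPM in labelled knockdown, with a log2 fold change of 0.27, or -0.10 in the 4 libraries. Pla2g5 was at 0.591 CPM in labelled wt replicate 1 and at 4.68 to 9.17 CPM elsewhere, with a log2 fold change of 1.09 ± 0.69 (SE), or 0.58 without that library. Pla2g6 had 5.43 to 8.23 CPM in labelled wt and 7.60 to 12.2 CPM in labelled knockdown, with a log2 fold change of 0.50 ± 0.26, or 0.29 without labelled knockdown replicate 2. Ptges3, the cytosolic prostaglandin E synthase, which is also the HSP90 co-chaperone p23, had 0.23 ± 0.16, and Mgst3, a microsomal glutathione transferase, had 0.34 ± 0.20. Without labelled wt replicate 1 these were 0.10 and 0.20, Ptges3 was 0.36 without labelled wt replicate 2, and Mgst3 was 0.18 without labelled knockdown replicate 1. Among genes of breakdown, 5 of 6 had negative values. Cyp4f18, which oxidizes leukotriene B4, had 253, 169 and 161 CPM in labelled wt and 132, 99.7 and 152 CPM in labelled knockdown, without overlap, and a log2 fold change of -0.60 ± 0.22 (SE; edgeR adjusted p = 0.328), or -0.37 without labelled wt replicate 1. Ggt5, which converts leukotriene C4 to D4, had -0.68 ± 0.33, or -1.03 without labelled knockdown replicate 3. Abcc4, an exporter of prostaglandins, had 47.1 to 60.8 CPM in labelled wt and 38.6 to 43.1 CPM in labelled knockdown, with -0.40 ± 0.13 (SE; edgeR adjusted p = 0.328).

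Of the 5 prostanoid receptors tested, 4 had negative values. Ptger2, the EP2 receptor of prostaglandin E2, had 65.3, 87.9 and 73.1 CPM in labelled wt and 47.3, 35.7 and 60.8 CPM in labelled knockdown, without overlap. Its log2 fold change was -0.66 ± 0.21 (SE; edgeR adjusted p = 0.328). Ptger4, the EP4 receptor, was more even, at 102 to 104 CPM in labelled wt and 86.6 to 110 CPM in labelled knockdown, with -0.11 ± 0.12 (-0.04 without labelled knockdown replicate 2 and -0.22 without replicate 3). Ptgir, the prostacyclin receptor, had -0.81 ± 0.31 and Ptger1, the EP1 receptor, had -0.91 ± 0.45, or -0.43 without labelled wt replicate 2. Ptgfr, the prostaglandin F receptor, stayed near 1 CPM or below in all libraries, with 0.33 ± 0.64, or -0.14 without labelled wt replicate 1 and 0.90 without labelled wt replicate 2.

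The receptors of cysteinyl leukotrienes had opposite signs. Cysltr1 had 40.6, 44.5 and 53.4 CPM in labelled wt and 33.1, 17.6 and 43.2 CPM in labelled knockdown, with a log2 fold change of -0.56 ± 0.30 (SE; edgeR adjusted p = 0.357), or -0.28 without labelled knockdown replicate 2 and -0.87 without replicate 3. Cysltr2 was scarce, at 0.731, 0.676 and 2.62 CPM in labelled wt and 2.57, 7.23 and 2.38 CPM in labelled knockdown, with 1.59 ± 0.68 (SE; edgeR adjusted p = 0.328), or 2.50 without labelled wt replicate 3 and 0.87 without labelled knockdown replicate 2. Labelled knockdown replicate 2 held the highest level of Cysltr2 and the lowest of Cysltr1, and the T and NK cell list was also highest there, with 6 of 6 markers positive and a median log2 fold change of 1.17. The part of those cells in the values of Cysltr2 was not tested. Whether the pair differed from each other was not tested. Ltb4r2, the low-affinity leukotriene B4 receptor, was at or under 0.438 CPM in all libraries and at 0 counts in labelled knockdown replicate 2.

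**Figure D5:**
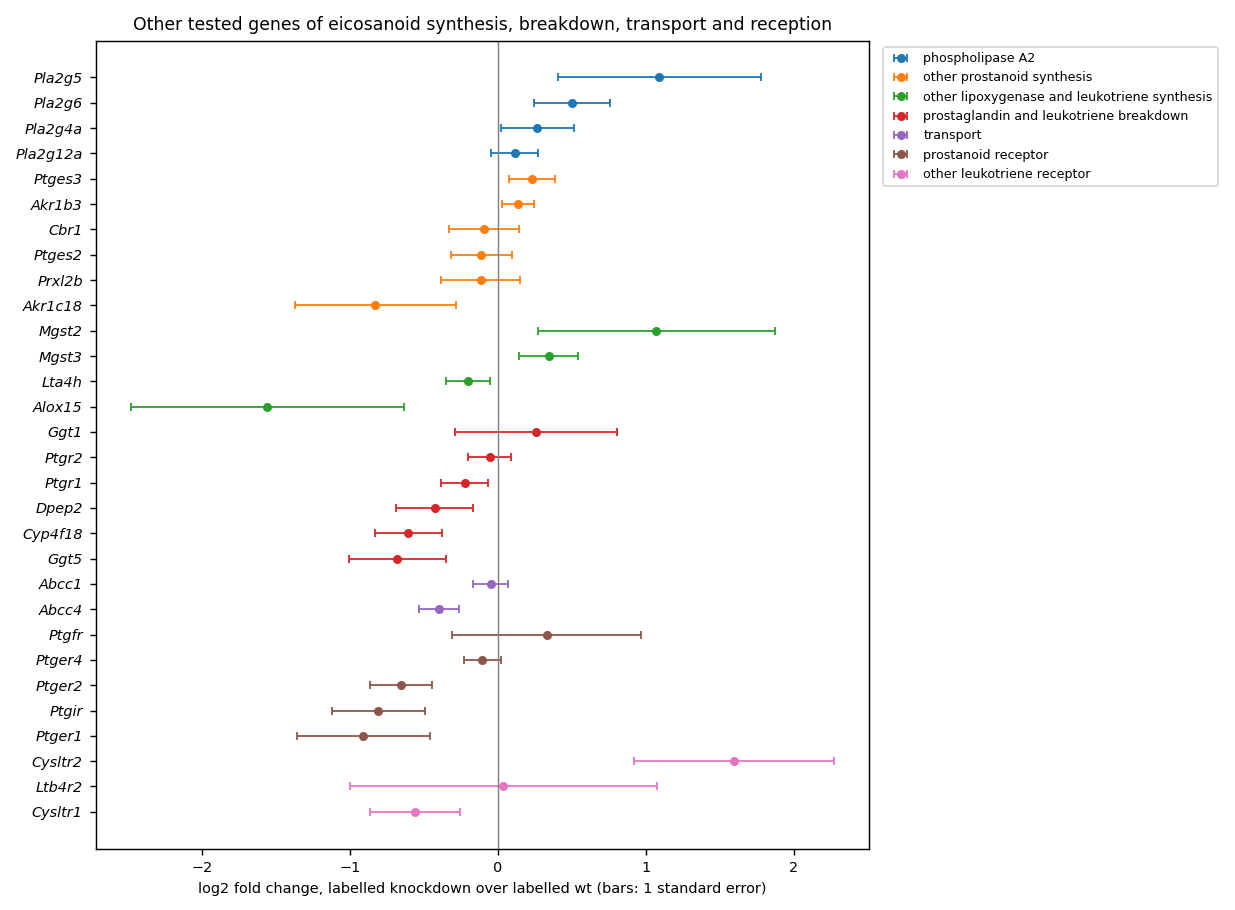
edgeR log2 fold changes, labelled knockdown over labelled wt, of the 30 other tested genes of the pathway, grouped by role, with bars of 1 SE. The 4 phospholipases A2 lie right of 0 in the 6 libraries and 4 of the 5 prostanoid receptors lie left of it, and none of the 30 passed the adjusted p.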

How the data were processed

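The authors deposited unnormalized whole-number read counts for each gene and the FPKM of the same libraries. Every measured column was mapped to a library by its title (0 were not). The labels name the build mm10, credited to the submitters' processing notes. The aligner, the counter and the annotation are not given in the sources used here. Counts were filtered with filterByExpr, TMM-scaled and compared with edgeR 4.0.16 (glmQLFit, glmQLFTest) in R 4.3.3, with Benjamini-Hochberg adjustment over 13884 genes and a threshold of 0.05. SEs are the absolute log2 fold change over the square root of F. log2 CPM used a prior count of 2. Alternatives used DESeq2 1.42.0 and limma 3.58.1 on log2 FPKM plus 1 or plus 0.1. Further alternatives were RLE and upper quartile factors, no filter or a stricter one, a block for replicate number, leaving out each library in turn, fits to 4 libraries, and scaling to the macrophage list, which was added after seeing the data. The scripts were tested on simulated data. Positions are from GENCODE on GRCm38 and sequences from RefSeq GRCm38.p6, matched by symbol. The 10 genes and all lists were chosen with earlier results of these data known. Other genes named are the 5 pathway genes with the smallest p in each direction and every tested receptor. Named too are the 3 genes nearest to Ptgs2 and to Alox5, and Npm1. Of the markers, the most abundant of a list and all members of the mast cell and basophil list are named. Whether replicate numbers pair the libraries was not settled, and the main fit was unpaired. With 3 libraries per group an exact permutation test cannot go below a two-sided p of 0.1.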

Additional observations from a re-analysis of the deposited data

How the results depend on the processing

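Over 17 alternatives, the count of the 10 genes at an adjusted p under 0.05 was 0 in 16, all fits without 1 library included, and 5 with DESeq2 on 4 libraries, where the other pathway genes had 5 and all genes 1283. DESeq2 on 6 libraries called 36 genes. All fits without 1 library called 0 genes, 0 of the 10 and 0 of the other pathway genes. Of 170 values of the 10 genes, 152 kept their direction and side of the threshold, 14 changed sign and the other 4 passed the threshold. Ptgs2, among those that changed sign, also passed it with DESeq2 on 4 libraries. The causes were not tested. Hpgds was -0.0020 with RLE factors, -0.0014 with no filter, -0.0086 with DESeq2, and -0.30 (edgeR) and -0.34 (DESeq2) on 4 libraries. On 4 libraries edgeR and DESeq2 gave -0.68 and -0.71 for Ptgs2, -0.12 and -0.16 for Ptgfr, -0.57 and -0.60 for Apold1, and -0.43 and -0.47 for Gm52308, and for Pla2g4a -0.10 and -0.14. Ltb4r2 was -0.029 with limma on FPKM plus 0.1, -0.37 with the replicate block and -0.48 with DESeq2 on 4 libraries. limma on FPKM plus 1 and plus 0.1 gave 0.035 and 0.036 for Ptger4 and 0.12 and 0.13 for Tnip3. Scaling to the macrophage list, chosen after seeing the data, gave 0.083 for Tbxas1, 0.12 for Abcc4, 0.39 for Ptger4 and 0.41 for Tnip3. Without 1 library the values ranged from -0.37 to 0.26 for Ptgs2, -0.28 to 0.44 for Hpgds, -0.14 to 0.90 for Ptgfr, -0.27 to 0.32 for Apold1, -0.18 to 0.29 for Gm52308, -0.73 to 0.62 for Ltb4r2 and -0.29 to 0.24 for Tnip3. Same-numbered libraries deviated from their group means with correlations of -0.241, 0.0605 and -0.337, so no pairing by number was seen over all genes. These values cannot exclude a pairing, because large differences between single libraries could hide it. The replicate block called 0 genes at an adjusted p under 0.05 and 1606 at an unadjusted one. limma on FPKM plus 0.1 moved the median of all genes from 0.02 to 0.16.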

Other observations

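The ratio of Ptges to Hpgd, the enzymes that make and inactivate prostaglandin E2, was taken from their deposited FPKM values after those values had been seen. By replicate number, the labelled wt libraries had ratios of 0.427, 6.39 and 4.63 and the labelled knockdown libraries 13.1, 15.4 and 7.14. All 3 labelled knockdown libraries lay above all 3 labelled wt libraries, a pattern that was seen before the ratio was chosen, so no test of it is given. Hpgd alone was already lower without overlap (12.6% of all genes), and the share of gene pairs with separate ratios was not counted. Without labelled wt replicate 1 the log2 fold changes were 0.58 for Ptges and -0.44 for Hpgd. Ptges followed the library order of the fibroblast list, and the part of other cells in the ratio was not tested. Alox15, which encodes 12/15-lipoxygenase of the mouse and was singled out after its values were seen, was at 7.51 CPM in labelled wt replicate 1 and at 0.547 to 2.12 CPM in the other 5 libraries.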
